A study of Mus musculus with 12 samples.

Results

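The 39 genes described here are interferon-stimulated genes, genes that cells transcribe after an interferon binds its receptor. They were taken by name under a rule that used no measured value, but earlier results of these data were known at that point. All 39 had a row among the 24060 gene rows of the expression files. The series holds RNA from 12 rhabdoid tumors. The mice, P0-CreC;Smarcb1 flox/flox on the FVB/N background, were a model in which the protein zero (P0) promoter drives Cre in early neural crest and in the Schwann cell lineage and both Smarcb1 alleles carry lox sites. The tumors came from the retro-orbital region (n = 4), the cheek (n = 3), the meninges (n = 3), the vestibular nerve (n = 1) and the trigeminal nerve (n = 1). Every tumor shared this genotype, no untreated, normal or Smarcb1-positive tissue was part of the comparison, and the age of the mouse behind each tumor was not given.

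Whole tumors were frozen and their RNA was sequenced, so the values mix tumor cells with blood vessels and immune cells, which keep Smarcb1. In such material fewer cells of a type and less RNA per cell cannot be told apart. Smarcb1 itself read 1.699 to 6.31 RPKM (reads scaled for transcript length and for the size of the library) over the 12 tumors, and Vim, a mesenchymal filament gene, 114 to 3001 RPKM. Fragment totals recovered from the files ran from 13206168 to 57128422 per tumor. As inferred from these totals, the 39 genes rested on 18 to 16345 fragments per gene and tumor. Cheek tumors 2 and 3 had the most alike profiles (Pearson's r = 0.989 over all gene rows). Fragments were recovered at an annotated length for 5758 genes, and 2176 of these had enough fragments in the 2 tumors to compare. Over the 2176 genes they differed by more than counting error (chi-square of 32.8 per degree of freedom). Cheek tumors 2 and 3 were thus not 1 library deposited again, and they are given as separate tumors. This does not show that they grew independently. They share the first part of their tumor identifier, as do cheek tumor 1 and meninges tumor 1, and retro-orbital tumor 3 and the trigeminal tumor. Whether a shared identifier marks the same animal was not stated.

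Type I interferons act through the receptor chains IFNAR1 and IFNAR2 and the kinases JAK1 and TYK2, and lead to the complex ISGF3, which holds STAT2 and IRF9 and binds a DNA element called the interferon-stimulated response element (ISRE). Interferon gamma acts through another receptor and another DNA element, the gamma-activated site (GAS), and raises IRF1, guanylate-binding proteins, immunity-related GTPases and immunoproteasome subunits. Viral or misplaced cellular nucleic acid is the best known trigger of interferon production, through sensors of RNA and DNA.

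These elements can be read in the promoters of the list. RefSeq promoters on GRCm38.p6, the build of the files, matched 31 of the 39 genes with 37 start sites. The ISRE core GAAANNGAAA was searched on both strands and the palindromic GAS letters TTCNNNGAA once, in the 250 bases before each start. The ISRE core occurred at 13 member promoters (35.1%) against 2.98% of all 32851 promoters. The GAS letters occurred at 9 (24.3%) against 7.02% of all. In 4 promoters both occurred, and in 1 of these (Bst2) they overlapped. The stretches below lie just upstream of the start. They span genes that followed the shared pattern across tumors closely (Ifit1, Isg15, Igtp) and a gene that departed from it (Rsad2). Also shown are Oas3, which was lowest in the vestibular tumor, and genes of the interferon gamma group (Gbp3, Igtp, Irf1). Capitals mark the ISRE core or the GAS letters, and each line reads 5′ to 3′ on the strand of the gene.
Ifit1: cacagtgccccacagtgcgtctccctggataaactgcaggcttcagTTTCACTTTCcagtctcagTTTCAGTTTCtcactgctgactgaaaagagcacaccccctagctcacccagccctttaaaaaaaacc
Isg15: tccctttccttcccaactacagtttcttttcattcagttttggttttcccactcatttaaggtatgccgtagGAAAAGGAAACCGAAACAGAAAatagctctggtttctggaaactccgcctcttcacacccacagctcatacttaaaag
Oas3: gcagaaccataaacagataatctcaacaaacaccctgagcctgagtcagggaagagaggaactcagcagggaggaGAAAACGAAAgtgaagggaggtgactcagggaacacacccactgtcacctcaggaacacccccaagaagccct
Rsad2: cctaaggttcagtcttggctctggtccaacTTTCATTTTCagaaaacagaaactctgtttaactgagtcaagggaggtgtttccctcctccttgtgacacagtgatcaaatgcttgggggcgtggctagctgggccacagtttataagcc
Gbp3: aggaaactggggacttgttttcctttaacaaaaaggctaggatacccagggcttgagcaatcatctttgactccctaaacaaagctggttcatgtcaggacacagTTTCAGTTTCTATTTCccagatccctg
Igtp: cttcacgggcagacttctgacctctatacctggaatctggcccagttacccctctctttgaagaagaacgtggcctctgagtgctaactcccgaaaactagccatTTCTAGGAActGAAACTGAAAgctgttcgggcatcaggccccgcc
Irf1: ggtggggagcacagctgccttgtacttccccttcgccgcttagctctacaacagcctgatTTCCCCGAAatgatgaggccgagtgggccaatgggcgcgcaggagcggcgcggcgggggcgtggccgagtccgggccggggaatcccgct

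These stretches lie at chr19:34640739-34640870 (plus strand, Ifit1), chr4:156200819-156200968 (minus, Isg15), chr5:120777662-120777809 (minus, Oas3), chr12:26456453-26456602 (minus, Rsad2), chr3:142559894-142560025 (plus, Gbp3), chr11:58199406-58199555 (plus, Igtp) and chr11:53769864-53770013 (plus, Irf1). Isg15 held 3 overlapping ISRE cores and Ifit1 held 2 separate ones, 104 and 85 bases before its RefSeq start. The printed Ifit1, Oas3 and Gbp3 stretches end before the RefSeq start, because the GENCODE annotation begins these genes further upstream. Igtp held a GAS match 45 bases and an ISRE core 34 bases before its start. Irf1 held GAS letters 90 bases before 1 of its start sites and no ISRE core in this window. A match is a description of letters and not a measured binding site.

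The tumors were first ordered by the level of the whole list. The tumor level is the median over the 39 genes of log2(RPKM + 1) minus that gene's median over the 12 tumors, so 0 is the middle of the series. It was highest in meninges tumor 3 (0.70) and meninges tumor 1 (0.67). Retro-orbital tumor 4 (0.53), meninges tumor 2 (0.40) and retro-orbital tumor 1 (0.22) came next. Cheek tumor 1 (0.05), the trigeminal tumor (-0.02), retro-orbital tumor 3 (-0.20) and the vestibular tumor (-0.41) formed the lower middle of the order. A gap of 1.33 then separated the vestibular tumor from retro-orbital tumor 2 (-1.74), cheek tumor 2 (-2.38) and cheek tumor 3 (-2.51), the largest gap between neighbours in the order. Summed over the list, meninges tumor 1 held 2137 RPKM and cheek tumor 3 held 209 RPKM. Over all genes tested the same quantity moved only between -0.12 and 0.11, so the spread of the list was much wider. Retro-orbital tumor 2, cheek tumor 2 and cheek tumor 3 were also the lowest by this all-gene value (-0.12, -0.12 and -0.10). Under quantile normalization the gap of 1.33 became 0.98.

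**Figure D1:**
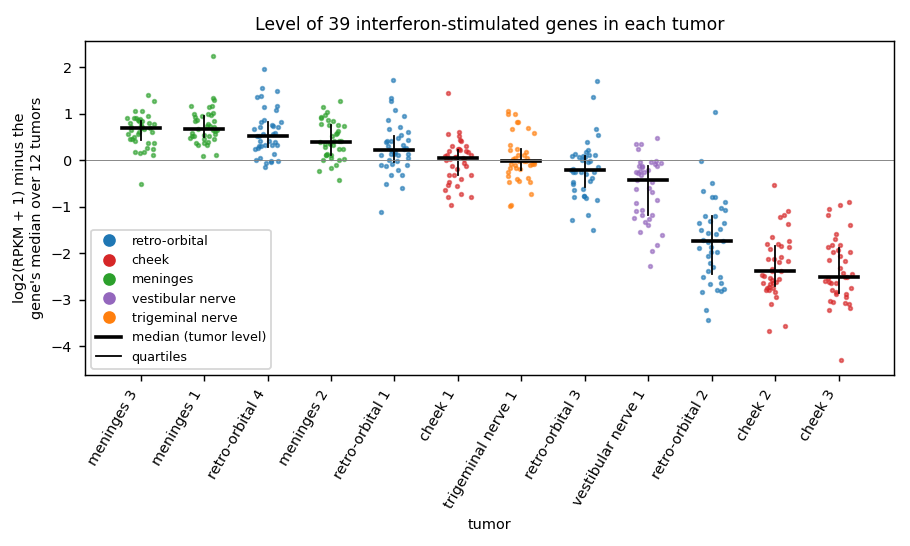
Level of the 39 genes in each tumor. The x axis lists the 12 tumors from the highest to the lowest tumor level, the y axis gives log2(RPKM + 1) minus each gene's median over the 12 tumors, points are genes colored by location (jittered sideways), thick bars are medians and thin bars quartiles. The 9 tumors on the left have medians between -0.41 and 0.70, and retro-orbital tumor 2, cheek tumor 2 and cheek tumor 3 lie at -1.74, -2.38 and -2.51.

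The order was shared by nearly the whole list. In 30 of the 39 genes the 3 lowest tumors were cheek tumor 2, cheek tumor 3 and retro-orbital tumor 2, and in 31 genes the lowest tumor was cheek tumor 2 or 3. In meninges tumor 1 all 39 genes lay above their own median, and in cheek tumors 2 and 3 none did. The ratio of the highest to the lowest tumor had a median of 17.5 over the list and ran from 3.18 (Eif2ak2) to 127 (Ifi44). On the log2(RPKM + 1) scale the members had a median standard deviation of 1.27 between tumors, against 0.47 for all 14745 genes tested. The neighbours meninges 3 and meninges 1, and cheek 1 and the trigeminal tumor, differed by less than 0.1 in level, inside the quartile range of either tumor. The 31 genes best known as type I targets and the 8 that interferon gamma is best known to induce (Irf1, Gbp2, Gbp3, Igtp, Irgm1, Irgm2, Psmb8 and Psmb9) gave nearly the same order (Pearson's r = 0.97, Spearman's rho = 0.91, 12 tumors, as a description).

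**Figure D2:**
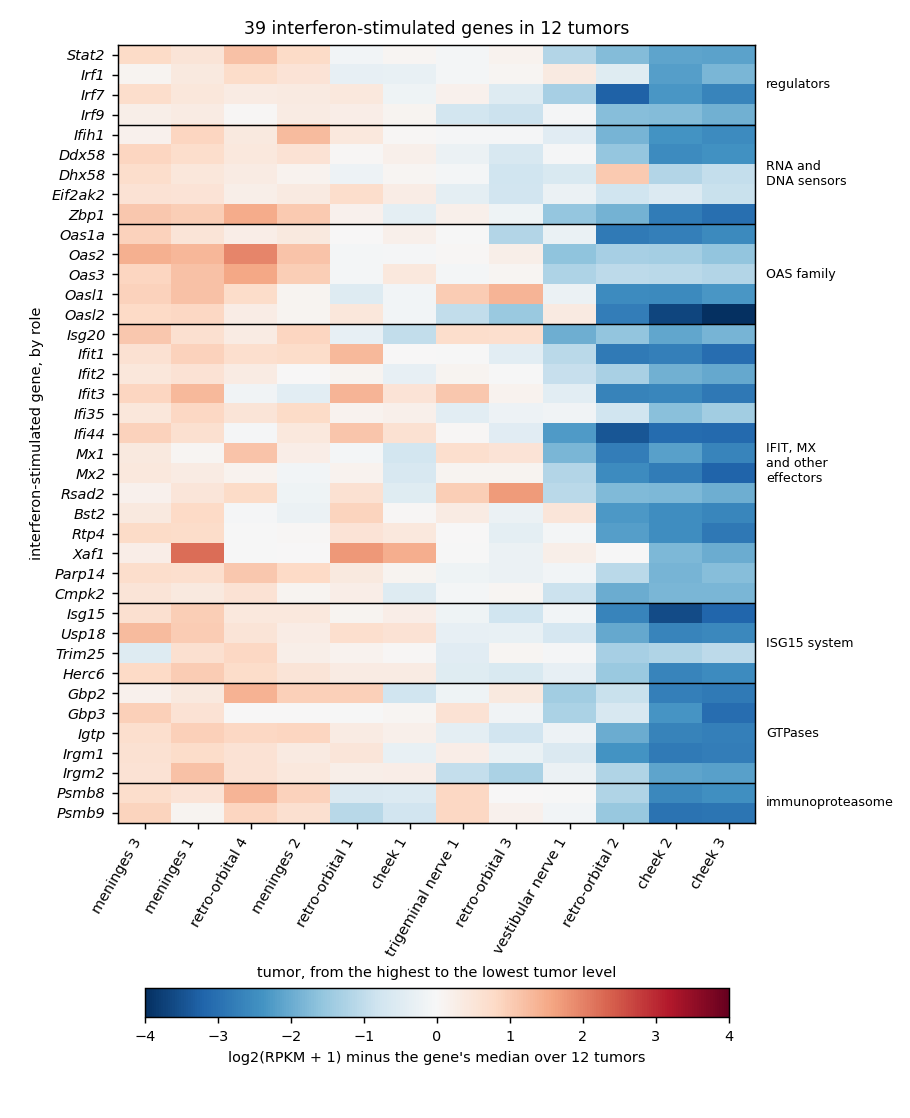
The 39 genes by role (y axis) in the 12 tumors (x axis, highest to lowest tumor level). Color gives log2(RPKM + 1) minus the gene's median over the 12 tumors, red above and blue below. The 3 columns on the right are blue for nearly every gene, with Dhx58 in retro-orbital tumor 2 as the red exception.

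The regulators that carry the signal followed the list. Stat2, a subunit of ISGF3, read 35.0, 10.6, 41.6 and 86.9 RPKM in retro-orbital tumors 1 to 4, 40.1, 7.98 and 7.88 in cheek tumors 1 to 3, 55.0, 65.5 and 65.0 in meninges tumors 1 to 3, 16.3 in the vestibular tumor and 36.0 in the trigeminal tumor. Irf9, the DNA-binding subunit of ISGF3, read 52.7, 12.8, 24.0 and 45.8 RPKM in the retro-orbital tumors, 47.9, 12.4 and 10.8 in the cheek tumors, 56.0, 55.8 and 52.1 in the meninges tumors, 42.2 in the vestibular tumor and 26.3 in the trigeminal tumor. For both genes the meninges tumors lay close together and above all cheek tumors, while the retro-orbital tumors overlapped the other locations. Irf7, which amplifies interferon alpha production, read 137, 10.1, 71.4 and 129.7 RPKM in the retro-orbital tumors, 90.3, 19.7 and 15.7 in the cheek tumors, 142, 133 and 169 in the meninges tumors, 40.5 in the vestibular tumor and 117 in the trigeminal tumor. Irf7 was the regulator with the widest range (16.7-fold), and retro-orbital tumor 2, not a cheek tumor, was its lowest.

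Irf1 kept a level in retro-orbital tumor 2 that the other regulators did not. This factor, induced through GAS elements, read 24.8, 21.9, 33.1 and 52.1 RPKM in the retro-orbital tumors, 24.9, 6.04 and 8.07 in the cheek tumors, 41.2, 46.2 and 33.6 in the meninges tumors, 40.0 in the vestibular tumor and 29.2 in the trigeminal tumor. The departure of a gene in a tumor is its log2(RPKM + 1) minus its own median, minus the tumor level. For Irf1 in retro-orbital tumor 2 it was 1.26 log2 units.

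Among the sensors, Ifih1 (MDA5) and Ddx58 (RIG-I), which detect double-stranded and 5′-triphosphate RNA, followed the list with r = 0.96 and 0.98. Ifih1 ranged from 3.51 RPKM (cheek tumor 3) to 61.1 (meninges tumor 2), and Ddx58 from 4.42 (cheek tumor 2) to 55.2 (meninges tumor 3). Zbp1, a sensor of Z-form nucleic acid that can start necroptosis, had one of the widest ranges of the list. It read 15.01, 2.80, 11.5 and 38.9 RPKM in the retro-orbital tumors, 9.76, 1.03 and 0.736 in the cheek tumors, 26.8, 28.1 and 28.7 in the meninges tumors, 3.87 in the vestibular tumor and 15.4 in the trigeminal tumor. Its lowest and highest values differed 52.9-fold, and the meninges tumors lay within 2 RPKM of each other.

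Dhx58 was the clear exception. It encodes LGP2, an RNA-binding relative of RIG-I and MDA5 that tunes their signaling. It read 18.3, 44.5, 11.8 and 27.1 RPKM in the retro-orbital tumors, 22.3, 8.84 and 10.4 in the cheek tumors, 29.7, 23.5 and 35.1 in the meninges tumors, 13.5 in the vestibular tumor and 20.1 in the trigeminal tumor. Retro-orbital tumor 2, which ranked 10th of 12 for the list, was thus the highest of all tumors for Dhx58, and the departure there was 2.78 log2 units, the largest of any gene in any tumor. Over the 12 tumors its r to the other members was 0.50, the only one under 0.7. Dhx58 was also above the list's level in cheek tumors 2 and 3, with departures of 1.21 and 1.55, although its RPKM there was the lowest of the series. Without retro-orbital tumor 2 its r was 0.86. Dhx58 lies on chromosome 11 (100694884 to 100704271, minus strand), and 4.31% of its exon bases overlap the antisense gene Dhx58os. Whether the counting used strand was not stated, so reads within this overlap cannot be assigned to either gene. Its neighbour Kat2a, on the same strand, read 15.1 RPKM in retro-orbital tumor 2 and 11.6 to 30.5 in the others.

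Eif2ak2 departed in another way, by its narrow range. It encodes PKR, a kinase that stops translation on binding double-stranded RNA. It read 51.6, 17.6, 17.8 and 37.1 RPKM in the retro-orbital tumors, 38.8, 21.1 and 16.2 in the cheek tumors, 45.9, 39.8 and 46.9 in the meninges tumors, 26.0 in the vestibular tumor and 23.5 in the trigeminal tumor. The highest value was 3.18 times the lowest, the smallest ratio of the list, and cheek tumor 2 lay 1.85 log2 units above the value its list level would give.

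**Figure D3:**
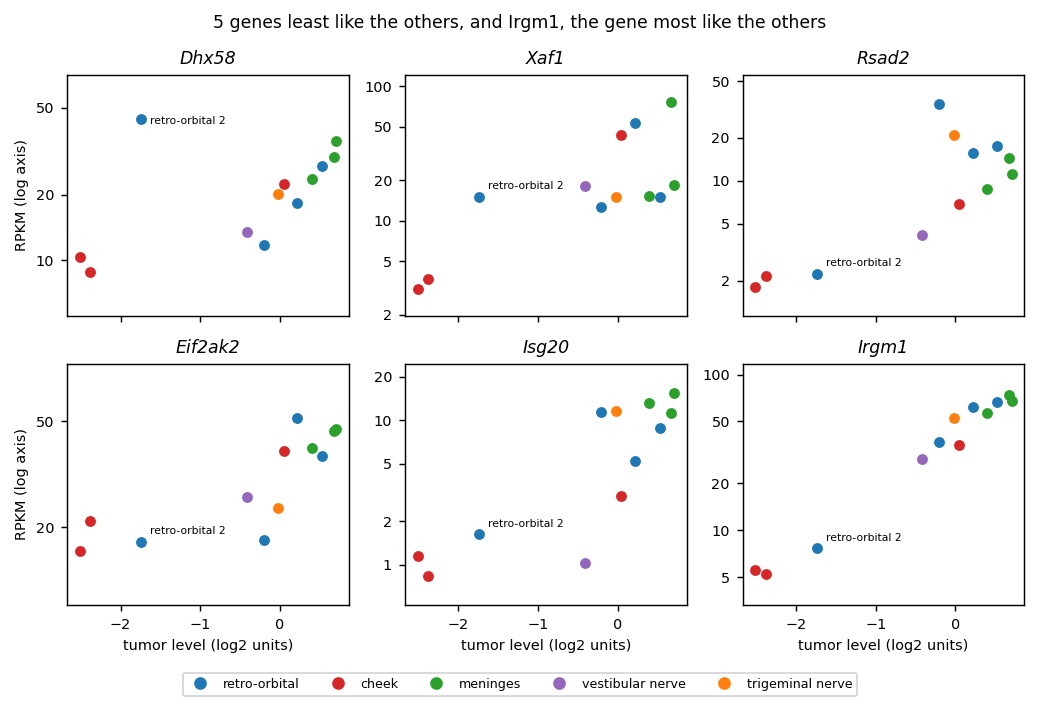
RPKM (y axis, log scale) against tumor level (x axis, log2 units) for the 5 genes least like the other members and for Irgm1, the most alike; each point is 1 tumor, colored by location. Retro-orbital tumor 2 is labelled: it is the highest tumor for Dhx58 at 44.5 RPKM and the tenth of 12 by level.

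The OAS family makes or mimics the enzymes that produce 2′,5′-linked oligoadenylate, the activator of RNase L. Oasl2 had the largest standard deviation of the list (1.80 log2 units). It read 94.2, 9.34, 23.8 and 86.0 RPKM in the retro-orbital tumors, 63.7, 4.51 and 2.58 in the cheek tumors, 125, 74.9 and 122 in the meninges tumors, 89.2 in the vestibular tumor and 34.7 in the trigeminal tumor. Oas1a ranged from 2.79 RPKM (retro-orbital tumor 2) to 49.3 (meninges tumor 3), but 57.6% of the 50-base words of its transcripts also occur in Oas1g, so its value is uncertain. The vestibular tumor split this family. It was the lowest of all 12 tumors for Oas2 (0.865 RPKM) and Oas3 (0.612 RPKM), below cheek tumors 2 and 3, while its Oasl2 was the fourth highest. Retro-orbital tumor 3 had the highest Oasl1 of all tumors (33.3 RPKM), 1.57 log2 units above the value its list level would give.

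The largest role group held 14 antiviral effectors. Ifit1, which binds foreign 5′ ends of RNA, read 211, 11.3, 63.4 and 138 RPKM in the retro-orbital tumors, 86.8, 12.0 and 9.41 in the cheek tumors, 164, 144 and 132 in the meninges tumors, 39.9 in the vestibular tumor and 85.1 in the trigeminal tumor. Ifit3, its partner, read 82.3, 4.19, 35.1 and 28.9 RPKM in the retro-orbital tumors, 46.5, 4.37 and 3.49 in the cheek tumors, 80.3, 23.6 and 58.6 in the meninges tumors, 23.6 in the vestibular tumor and 67.6 in the trigeminal tumor. Retro-orbital tumor 1 was the highest tumor for both. Of the words of Ifit3, 51.2% also occur in Ifit3b, so its value is uncertain.

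Ifi44, an interferon-induced cytoplasmic protein of antiviral function, had the largest ratio. It read 26.8, 0.211, 8.45 and 11.6 RPKM in the retro-orbital tumors, 18.8, 0.538 and 0.521 in the cheek tumors, 19.2, 16.4 and 23.6 in the meninges tumors, 1.69 in the vestibular tumor and 12.4 in the trigeminal tumor. The vestibular tumor left its place in the order here, 1.86 log2 units below the value its list level would give, as it did for Isg20 (-1.53). The dynamin-like GTPases Mx1 and Mx2, which trap viral ribonucleoproteins, ranged from 0.846 to 27.0 and from 0.875 to 22.2 RPKM. Bst2, which tethers budding virions, stayed above 19 RPKM in every tumor and reached 229.8 in retro-orbital tumor 1. Its vestibular value (175 RPKM) was among the 3 highest. Of the other effectors, Ifit2 (6.9989 to 48.4 RPKM, r = 0.97), Rtp4, a chaperone of membrane receptors (5.34 to 78.3, r = 0.97), and Parp14, an ADP-ribosyltransferase (5.99 to 52.5, r = 0.97), kept to the order. Cmpk2, a mitochondrial nucleotide kinase encoded beside Rsad2, ranged from 0.747 to 9.23 RPKM (r = 0.95) and Ifi35 from 8.41 to 52.0 (r = 0.95). Cmpk2 thus followed the list more closely than Rsad2 did, and its value in retro-orbital tumor 3 was 6.20 RPKM against 34.7 for Rsad2.

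Rsad2, Isg20 and Xaf1 were the effectors least like the rest (r = 0.78, 0.81 and 0.76). Rsad2 encodes viperin, which makes a chain-terminating nucleotide. It read 15.8, 2.25, 34.7 and 17.6 RPKM in the retro-orbital tumors, 6.91, 2.17 and 1.80 in the cheek tumors, 14.4, 8.79 and 11.3 in the meninges tumors, 4.21 in the vestibular tumor and 20.9 in the trigeminal tumor. Rsad2 was highest in retro-orbital tumor 3, 1.91 log2 units above the value the list would give, with the trigeminal tumor next. Isg20, an RNA exonuclease, read 5.23, 1.62, 11.4 and 8.76 RPKM in the retro-orbital tumors, 2.98, 0.837 and 1.15 in the cheek tumors, 11.3, 13.1 and 15.4 in the meninges tumors, 1.03 in the vestibular tumor and 11.6 in the trigeminal tumor. All meninges tumors lay above all cheek tumors for Isg20, and 1 retro-orbital tumor lay within the meninges range.

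Xaf1, a pro-apoptotic partner of XIAP, lay in bands rather than along a gradient. It read 52.8, 15.1, 12.7 and 15.2 RPKM in the retro-orbital tumors, 43.2, 3.69 and 3.12 in the cheek tumors, 76.2, 15.3 and 18.5 in the meninges tumors, 18.2 in the vestibular tumor and 15.1 in the trigeminal tumor. Retro-orbital tumor 1, cheek tumor 1 and meninges tumor 1 held the high values, cheek tumors 2 and 3 the low ones, and the other 7 tumors lay between 12.7 and 18.5 although their list levels ran from -1.74 to 0.70. Xaf1 lies on chromosome 11 (72301629 to 72313733, plus strand), and no other annotated gene shares its exon bases.

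The ISG15 system attaches and removes the ubiquitin-like protein ISG15. Isg15 read 68.2, 9.22, 35.3 and 84.3 RPKM in the retro-orbital tumors, 74.9, 4.38 and 6.01 in the cheek tumors, 126, 84.6 and 98.7 in the meninges tumors, 57.6 in the vestibular tumor and 55.5 in the trigeminal tumor. It was one of the 4 genes of the list for which every meninges tumor lay above every retro-orbital tumor. Of all genes tested, 6.82% showed that order, so it is not particular to Isg15 or to the list. Usp18, the deISGylase that also dampens the type I receptor, and Herc6, the mouse ISG15 ligase, both followed the list with r = 0.98. Usp18 ranged from 2.68 to 53.9 RPKM and Herc6 from 1.41 to 29.3. Trim25, the ubiquitin ligase that assists RIG-I, had a flatter range (6.79 to 34.1 RPKM) and was low in meninges tumor 3 (12.8 RPKM).

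The GTPases act on vacuoles that hold pathogens. Irgm1 was the gene most like the rest of the list (r = 0.99), and ranged from 5.26 RPKM (cheek tumor 2) to 73.6 (meninges tumor 1). Gbp2 was highest in retro-orbital tumors 4 and 1 (161 and 121 RPKM) and lowest in cheek tumors 3 and 2 (7.74 and 8.30 RPKM), with 32.7 RPKM in retro-orbital tumor 2. Igtp ranged from 2.66 to 46.5 RPKM (r = 0.98), Irgm2 from 2.61 to 35.6 (r = 0.90) and Gbp3 from 1.32 to 35.9 (r = 0.90), each lowest in cheek tumor 3. The immunoproteasome subunits Psmb8 and Psmb9, which trim peptides for MHC class I, were highest in retro-orbital tumor 4 (127 RPKM) and meninges tumor 3 (48.8 RPKM) respectively. As groups, the GTPases and the immunoproteasome were less low than the OAS family in retro-orbital tumor 2 (group medians of -1.20, -1.35 and -2.50 in log2 units) and were lower in cheek tumors 2 and 3 (-2.67 to -2.78 against -2.31 to -2.56). Oas2 and Oas3 read only 0.706 to 1.21 RPKM in cheek tumors 2 and 3. On the log2(RPKM + 1) scale such low genes can fall less, which limits the OAS value there. The difference between these groups was not tested.

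The genes were next compared pair by pair. Over the 12 tumors the 741 pairs of members had a median r of 0.85, and 87.3% of pairs reached 0.7. Among all pairs of tested genes the median was 0.05 and 3.17% reached 0.7. Against the level of the other 38 genes, 38 of 39 members reached r = 0.7 and 24 reached 0.9 (median 0.93). These correlations are descriptions over 12 tumors from a shared sequencing pool, some with a shared identifier, and much of their size came from the 3 lowest tumors. Without cheek tumors 2 and 3, 32 members reached 0.7. Among the 9 tumors that remain when retro-orbital tumor 2 is also left out, 24 did (median 0.74), and 9 were under 0.5: Irf1, Ifit3, Oasl1, Rsad2, Bst2, Xaf1, Trim25, Psmb8 and Psmb9. Dhx58 was among those that followed the list in these 9 tumors (r = 0.88), as did Irgm1 and Irf7 (both 0.91).

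**Figure D4:**
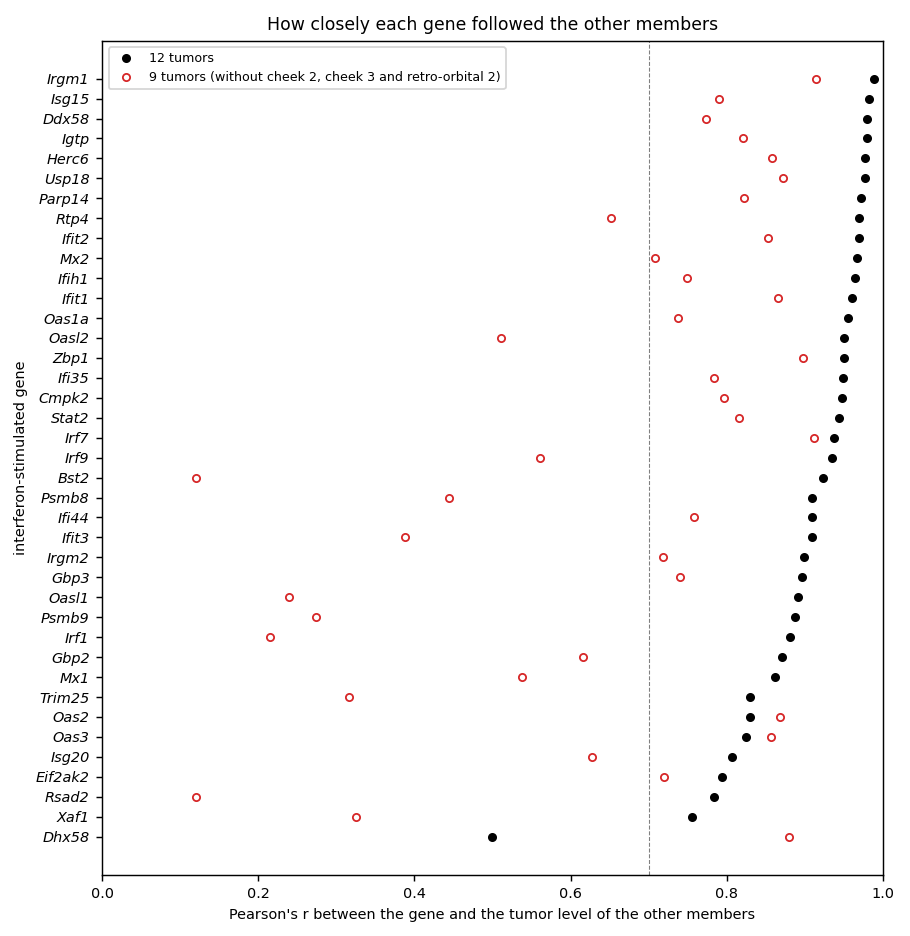
Pearson's r (x axis) between each of the 39 genes (y axis) and the tumor level of the other 38, over 12 tumors (black) and over the 9 tumors other than cheek 2, cheek 3 and retro-orbital 2 (red, open); the dashed line marks 0.7. Over 12 tumors Dhx58 alone lies under the line, at 0.50, and over 9 tumors Rsad2 and Bst2 are lowest, at 0.12.

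Outside the list, the genes whose log2(RPKM + 1) was most like the tumor level, of 15004 compared over the 12 tumors, were Adar (r = 0.98), Trim34b, Dtx3l, Parp9, Trim30a, Oas1g, Gbp6, Ddx60, Parp10 and Parp12 (0.97). Adar, which edits double-stranded RNA and limits MDA5 and PKR signaling, ranged from 5.81 RPKM in cheek tumor 2 to 34.7 in meninges tumor 1. Of the 10, 7 stood on the lists of the pathway described next. In all, 66 of the 15004 genes (0.440%) reached 0.9.

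The ligands and receptors of the pathway followed the order less than the list itself did. Of 21 interferon ligand genes, 4 were listed at 0 in all 12 tumors and only Ifnk, an epithelial type I interferon, reached 1 RPKM in any tumor. Ifnk was highest in retro-orbital tumor 3 (2.88 RPKM), as was Ifnb1 (0.909 RPKM), the tumor with the highest Rsad2 and Oasl1. Ifng, the interferon gamma gene, did not pass 0.372 RPKM. The receptors and kinases were measured throughout. Ifnar1 ranged from 17.4 to 33.0 RPKM, Ifnar2 from 12.2 to 36.2, Ifngr1 from 14.99 to 59.5 and Jak1 from 30.5 to 78.2. None of the 9 genes of this list reached r = 0.7 to the tumor level (median 0.29). Over all 15004 genes compared, 7.01% reached 0.7. Among the other regulators Irf8, a factor of myeloid cells and B cells (3.99 to 33.3 RPKM, r = 0.72), did. Of 12 genes of upstream sensing 4 did, and the summed RPKM of all 12 followed the level with r = 0.79. The 4 were Adar (r = 0.98), Tlr3 (r = 0.87), Tlr9 (0.81) and Ticam1 (0.73), while Mavs (r = 0.20), Tbk1 (0.55) and Tmem173 (STING, 0.59) did not.

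Of 43 further interferon-stimulated genes, 38 reached r = 0.7. The chemokine Cxcl10 ranged from 0.897 RPKM in retro-orbital tumor 2 to 269.6 in meninges tumor 1. The 5 others were Ifitm1, Ifitm2, Ifitm3, Cxcl9 and Ifi203. The IFITM proteins block viral fusion, and Ifitm2 ran against the order (r = -0.58), with 947 and 925 RPKM in cheek tumors 2 and 3 and 594, 778 and 757 in meninges tumors 1 to 3. Cxcl9, the chemokine most tied to interferon gamma, read 94.8 RPKM in meninges tumor 2 and at most 7.02 in any other tumor.

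Locations were compared with limma on log2(RPKM + 1) over the 10 retro-orbital, cheek and meninges tumors, with Benjamini-Hochberg adjustment over 14745 genes. None of the 39 members passed a limma adjusted p of 0.05 in the test across locations, where 0.0407% of all genes tested passed (limma, 6 genes). Nor did any between meninges and retro-orbital tumors (background 0.0203%), cheek and retro-orbital tumors (0.0271%) or meninges and cheek tumors (0.0475%). At an unadjusted p under 0.05 there were 19 members in the test across locations (48.7%, against 14.3% of all genes tested) and 33 between meninges and cheek (84.6% against 16.96%). Between cheek and retro-orbital tumors there were 9 (23.1% against 12.0%), and between meninges and retro-orbital tumors 0 (against 9.14%). The members moved together across tumors (median r of 0.85 between pairs, against 0.05 for all tested genes). Counts of members are thus not counts of independent genes, and their shares cannot be read as a test of the list. The lowest adjusted p across locations was 0.194, for Gbp2 (99.2 ± 55.0 RPKM in retro-orbital tumors, 17.1 ± 15.7 in cheek tumors and 89.6 ± 26.1 in meninges tumors, SD, n = 4, 3 and 3) and Isg20 (6.76 ± 4.26, 1.66 ± 1.16 and 13.3 ± 2.07), both by limma.

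All 39 genes were higher on average in meninges than in cheek tumors, as were 61.9% of all genes tested. The difference was 0.86 to 3.28 log2 units for the list (median 2.29, against 0.16 for all genes tested). The difference was largest for Oasl2 (3.28, SE 1.12, limma adjusted p = 0.217) and reached its lowest adjusted p for Isg20 (2.50, SE 0.54, limma adjusted p = 0.111). For 31 of the 39 genes every meninges tumor lay above every cheek tumor, an order that 19.2% of all genes tested showed. The 8 others were Ifit3, Ifi44, Usp18, Bst2, Rtp4, Xaf1, Gbp3 and Trim25, and in each the exception involved cheek tumor 1. Every meninges tumor lay above every retro-orbital tumor for 4 genes (Isg15, Ddx58, Oas1a and Gbp3), where 6.82% of all genes tested showed that order. The median difference between meninges and retro-orbital tumors was 0.91 for the list and 0.13 for all genes tested, and between cheek and retro-orbital tumors -1.26 and -0.02.

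Cheek tumor 1 was like the middle of the series and cheek tumors 2 and 3 were the lowest of all. Without cheek tumor 1, 19 members passed between meninges and cheek (limma, where 3.63% of all genes tested passed), 3 between cheek and retro-orbital (1.01%) and 5 across locations (1.36%). Without cheek tumor 2 or 3, or with both averaged into 1 tumor, no member passed in any comparison, and no other gene tested did either. The lowest limma adjusted p of a member between meninges and cheek was 0.450 to 0.489 in these fits. With the shared identifier as a block, 17 of the 39 members passed between meninges and cheek, where 28.8% of all genes tested passed, and 6 of 39 across locations, a smaller share than the 19% of all genes. In that fit only 2 identifiers covered more than 1 of the 10 tumors. As cheek tumors 2 and 3 share an identifier, the cheek location and whatever that identifier stands for cannot be told apart.

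The pathway lists gave no call either. None of the 9 receptors and kinases, 7 other regulators, 12 sensing genes and 43 further interferon-stimulated genes passed across locations or in any pair. Their median differences between meninges and cheek were 0.45, 0.74, 0.70 and 1.98 log2 units. The lowest adjusted p among them was 0.0991 (limma, Gbp5 between meninges and cheek, named after its value was seen, 2.94 log2 units, SE 0.56).

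Markers of other cell types moved with the order in part. The 10 macrophage and microglia markers summed to 513 to 5481 RPKM and were highest in retro-orbital tumor 2, where Lyz2 read 4444 RPKM, Cd68 244 and Csf1r 146. All 10 were at 1 RPKM or more in all 12 tumors. Cheek tumors 2 and 3 had sums of 1184 and 1303 RPKM, above meninges tumors 1 and 3 (575 and 681), but Lyz2 alone made up 73.1% and 71.8% of them. The other 9 markers summed to 318 and 367 RPKM in cheek tumors 2 and 3, 372 and 442 in meninges tumors 1 and 3, 1037 in retro-orbital tumor 2 and 201 in the vestibular tumor, the lowest. Of these 9, 8 were lower in cheek tumors 2 and 3 than in meninges tumor 3, among them Ptprc, the pan-leukocyte marker CD45 (10.1 and 9.81 against 23.8 RPKM). Against meninges tumor 1, 7 of the 9 were lower in cheek tumor 2 and 5 in cheek tumor 3. Cheek tumor 1, with a tumor level of 0.05, had a lower sum of the 9 (277 RPKM) than cheek tumors 2 and 3. Summed without Lyz2, the macrophage markers were toward the low end in all 3 cheek tumors and the highest of the series in retro-orbital tumor 2. The 10 T and NK cell markers were lowest in cheek tumors 2 and 3 (sums of 1.90 and 2.30 RPKM, with Cd3g, Nkg7 and Klrb1c at 0 in both) and ran up to 35.0 RPKM in retro-orbital tumor 4. Retro-orbital tumor 2, with 13.8 RPKM, was not low. Among 5 plasmacytoid dendritic cell markers, Siglech was at 0 in retro-orbital tumor 2 and at most 5.62 RPKM elsewhere, and the sum of the list, at most 432 RPKM, was mostly Ly6d there (428 RPKM, meninges tumor 1).

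The 5 brain glia markers summed to 2.98 RPKM in retro-orbital tumor 2, 6.27 in retro-orbital tumor 1, 10.7 and 9.82 in cheek tumors 2 and 3, and 119 to 393 in the meninges tumors. Gfap was under 1 RPKM in retro-orbital tumors 1 and 2 and in all cheek tumors. Retro-orbital tumor 1 had a tumor level of 0.22, and the meninges tumors had levels of 0.40 to 0.70. The 5 skeletal muscle markers were highest in cheek tumors 2 and 3 (456 and 246 RPKM), with Acta1 at 196 and 106 RPKM. Endothelial markers summed to 15.7 to 61.4 RPKM and were as high in cheek tumors 2 and 3 (41.1 and 43.4) as in the middle of the series, while retro-orbital tumor 2 and the vestibular tumor were lowest (both 15.7). The part of these cells in the level of the interferon-stimulated genes was not tested.

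**Figure D5:**
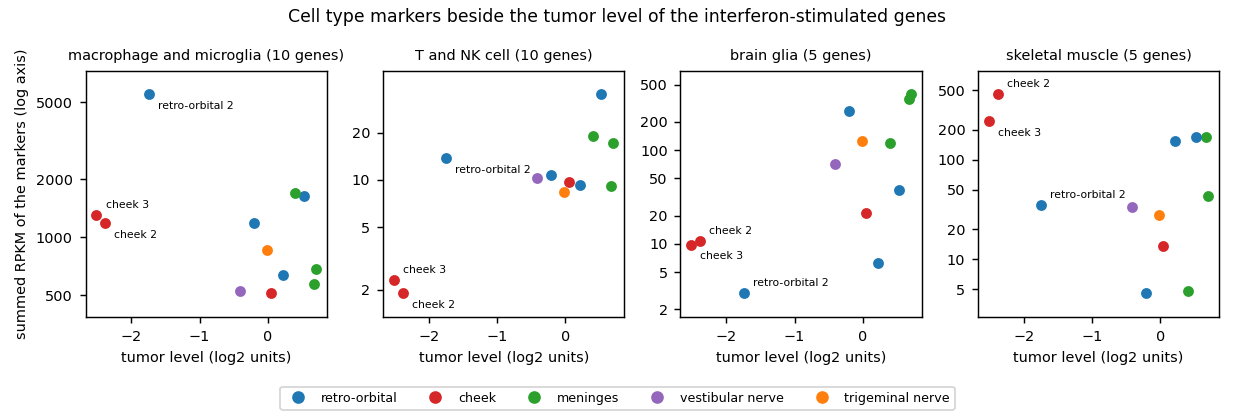
Summed RPKM of cell type markers (y axes, log scale) against the tumor level of the 39 genes (x axes, log2 units) in the 12 tumors, colored by location. Retro-orbital tumor 2 is the highest for macrophage and microglia markers (5481 RPKM, of which Lyz2 4444) and cheek tumors 2 and 3 are the highest for skeletal muscle (456 and 246 RPKM) and the lowest for T and NK cell markers.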

How the data were processed

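RNA from 12 frozen tumors was sequenced from ribosome-depleted, stranded libraries in 1 pool. Per the labels and the methods, the authors aligned the reads to mm10 with STAR, counted uniquely mapped reads on RefSeq genes with HTSeq and deposited RPKM, 1 value per gene and tumor. Which transcript length was used is not given in the sources used here. A further 27 entries whose symbol had become a date were never named. RPKM values are not counts, so locations were compared by limma 3.58.1 (R 4.3.3) after a log2 transform with a pseudocount of 1, using a prior variance that was trended and robust. A gene entered if 3 or more fitted tumors reached 1 RPKM. All 39 members passed. Log2 differences understate changes of low genes. Totals of fragments were inferred from the spacing of low RPKM values (tolerance of 0.02 fragments) and used only to describe depth. The limma fit was run on simulated data with genes drawn independently and a smaller spread than in the tumors. That run cannot show how well the fit finds differences in these data. All p-values measure the spread between tumors, some of which may come from 1 animal.

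The tumor level, likeness to the list and marker sums were computed in Python 3.11.15 with numpy 2.4.6, pandas 2.3.3, scipy 1.17.1 and matplotlib 3.10.9. Gene positions, overlaps and shared 50-base words came from GENCODE M21 on GRCm38, and promoters from RefSeq on GRCm38.p6. Full values are given for the 4 regulators, the 6 members of largest standard deviation, the 5 least like the list and any called, and names for the 10 other genes most like the list. Isg15 and Ifit1 are among the 6, and Gbp2, Irgm1, Mx2 and single values of other members were named after their values were seen. The other pathway genes and markers are from lists by role. The members and lists were chosen with earlier results of these data known. Alternatives were another pseudocount (0.1), no filter, quantile normalization, a plain prior, the identifier as a block, a mean in place of the median, type I members only and each tumor left out. One gene of the pathway lists is not reported here.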

Additional observations from a re-analysis of the deposited data

Results flagged for a closer look

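Within the 4 retro-orbital tumors, the gap between the extreme tumor and its nearest neighbour was compared with the whole range of the group, for the 39 genes and for the tumor level. Of these 40 screens 2 stood out, about the 2 that chance alone gives. For Mx2 retro-orbital tumor 2 lay far below the others (2.08 against 17.9 to 18.3 RPKM), a gap that made up 0.989 of the range on the log2(RPKM + 1) scale. For Xaf1 retro-orbital tumor 1 lay far above (52.8 against 12.7 to 15.2 RPKM), with a gap of 0.878 of the range. The tumor level itself was not among them.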

How the results depend on the processing

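The level of each tumor moved by less than 1.02 log2 units, the standard deviation within locations, under all alternatives run (211 values). Cheek tumors 3 and 2 and retro-orbital tumor 2 were the 3 lowest whenever all 12 tumors were kept. The limit of 1.02 is wide beside the levels of the 9 upper tumors (-0.41 to 0.70), so it cannot show that their order held. With only those 9 tumors, Spearman's rho to the main order was 0.983, and meninges tumors 1 and 3 changed places. The number of members with r of at least 0.7 was 38 of 39, and 37 to 39 when each tumor was left out (without retro-orbital tumor 2 all 39 reached it). Chosen after seeing the data, leaving out cheek 2 and 3 gave 32, and leaving out retro-orbital tumor 2 as well gave 24.

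No member passed between locations by limma under another pseudocount, no filter, quantile normalization or a plain prior. In these settings at most 22 of all genes tested passed in any comparison (plain prior, meninges against cheek). The identifier block gave 6 members across locations and 17 between meninges and cheek, and 0 in the other pairs, beside 19% and 28.8% of all genes tested in the first 2. When each tumor was left out, 0 to 5 members passed across locations, 0 to 3 between cheek and retro-orbital, 0 to 19 between meninges and cheek and 0 between meninges and retro-orbital. The nonzero counts all came without cheek tumor 1, where 1.36%, 1.01% and 3.63% of all genes passed in these comparisons, and where Gbp2 (limma adjusted p = 0.0465) and Irf1 (0.0352) passed across locations. Under the block Gbp2 (0.0231) and Isg20 (0.00479) did. No replicate numbers are shared between locations in the labels, so no paired fit was made. With 3 cheek tumors, of which 2 share an identifier, 1 tumor decides whether members pass.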
